A study of Mus musculus with 109 samples.

Results

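Mouse genotypes that carry lesions at human COPD risk loci were set against each other after chronic smoke: the 14 arrays labelled Hhip heterozygous (Hhip+/-) and smoke, and the 13 arrays labelled Fam13a knockout (Fam13a-/-) and smoke. They were chosen by their strain, genotype and treatment labels and number 27, and the rest of the series holds 82 arrays. Every array of the series holds total RNA of mouse lung tissue. The same genotypes without smoke were 12 arrays of Hhip+/- air and 6 of Fam13a-/- air, and the wild-type C57BL/6J arrays were 28 for smoke and 22 for air. All these groups share the C57BL6 strain label. The series also holds 8 air and 6 smoke wild-type arrays with the strain label NZWLacJ, though their titles name C57. They entered the fit behind every p, but no comparison here uses them as a group. The smoke groups breathed mixed main-stream and side-stream smoke of 3R4F research cigarettes on 5 days a week for 6 months, and the air groups filtered air. The labels give no age, sex, litter, allele construct or cell type of deletion. Nothing in them says whether each array is its own animal. The spread behind every p is that between arrays within groups, pooled over all 8 groups of the series, and may be technical.

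Hhip encodes a membrane protein that binds Hedgehog ligands and lowers signalling through the Ptch1 receptor. Fam13a encodes a protein that has been linked to beta-catenin degradation and to fatty acid oxidation through Cpt1a. Both genes lie at loci associated with COPD and lung function in humans. In bulk lung RNA, a lower signal can come from fewer cells of a type or from less RNA per cell, and these cannot be told apart here.

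Values are normalized log2 signals of 1 bead probe per gene, and a difference is Hhip+/- smoke minus Fam13a-/- smoke with its standard error (SE). A gene passed when its adjusted p in limma, over all 11346 genes or unnamed probes tested, was below 0.05. The share of probes detected was 36.0% to 53.2% on Hhip+/- smoke arrays and 43.9% to 52.5% on Fam13a-/- smoke arrays, and 1 array, Hhip+/- smoke replicate 11, lay well below the rest. Lung markers were bright in both groups. The club cell marker Scgb1a1 averaged 15.43 ± 0.13 (SD, n = 14) in Hhip+/- smoke and 15.37 ± 0.23 (SD, n = 13) in Fam13a-/- smoke. Every smoke array of both groups detected Xist, and the Y-linked Uty probe averaged 5.20 and 5.22, near background, in Hhip+/- smoke and Fam13a-/- smoke. Of 2 tested sex-linked genes 0 passed, and their mean level had a median of 6.96 in Hhip+/- smoke and 6.42 in Fam13a-/- smoke.

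The genes named in the genotypes come first. The Hhip probe ran from 5.93 to 7.23 with a median of 6.54 in Hhip+/- smoke, against 5.31 to 6.76 with a median of 6.18 in Fam13a-/- smoke. The groups overlapped, and Hhip was higher in Hhip+/- smoke by 0.43 ± 0.15 (SE; limma adjusted p = 0.0404). Against wild-type smoke, the difference of Hhip was -0.03 for Hhip+/- smoke (adjusted p = 0.943) and -0.46 for Fam13a-/- smoke (adjusted p = 0.0191). The Hhip call between the genotypes was lost, with an adjusted p of up to 0.0931, on leaving out any of 12 single arrays: Hhip+/- smoke replicates 2, 3, 4, 6, 8, 10 and 12, and Fam13a-/- smoke replicates 2, 4, 6, 8 and 12. The Fam13a probe ran from 5.46 to 6.86 with a median of 6.15 in Hhip+/- smoke, against 4.59 to 6.22 with a median of 5.43 in Fam13a-/- smoke. It was detected on 12 of 14 and on 7 of 13 arrays of these groups, and the difference of 0.73 ± 0.30 did not pass (limma adjusted p = 0.0944). The Fam13a-/- smoke arrays with detection were replicates 1 to 6 and 12. The probes' positions were not used here, so neither gene checks its label: the Hhip probe was not lower in the libraries labelled Hhip heterozygous.

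Under smoke the genotypes differed at 1544 genes, 13.6% of those tested: 737 were higher in Hhip+/- smoke (6.5%) and 807 were lower (7.11%). Every list count between the smoke groups below is to be read against these shares. Most differences were small. Only 13 of the called genes were higher by 1 or more on the log2 scale, while 60 were lower by 1 or more. The genes lower in Hhip+/- smoke included markers of ciliated and secretory airway cells, heart muscle and fat genes, and genes of fatty acid oxidation and the glucocorticoid response. Those higher in Hhip+/- smoke included genes of the extracellular matrix, Wnt signalling, B cells and lipid-laden macrophages. With each array only scaled to its median in place of quantile normalization, 476 genes passed, 114 higher and 362 lower.

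**Figure D1:**
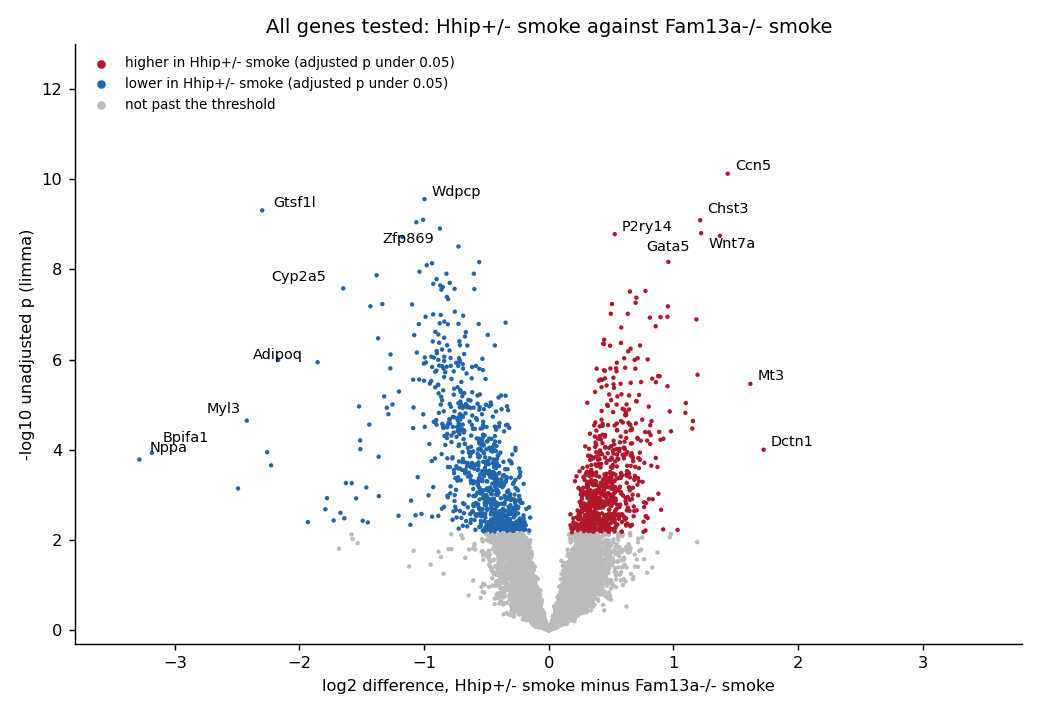
Each point is 1 of the 11346 genes or unnamed probes tested; the horizontal axis is the log2 difference, Hhip+/- smoke minus Fam13a-/- smoke, and the vertical axis the -log10 of the unadjusted limma p. Red points (737) passed as higher and blue points (807) as lower in Hhip+/- smoke, with Nppa and Bpifa1 at the far left and Dctn1 and Mt3 at the far right.

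Ciliated cell markers were lower in Hhip+/- smoke. Ciliated cells line the airways and beat motile cilia, which are built by dyneins, tektins and radial spokes under factors such as Foxj1 and the RFX family. Of 18 tested markers, 14 passed as lower and 0 as higher, with a median difference of -0.66, against 0.01 over all genes. The mean level of the list ran from 7.60 to 8.22 with a median of 7.94 in Hhip+/- smoke, and from 8.22 to 9.17 with a median of 8.44 in Fam13a-/- smoke. The highest Hhip+/- array and the lowest Fam13a-/- array met at the same value to 2 decimals. Left-out single arrays gave 12 to 14 members.

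Dynlrb2, a light chain of the dynein motors, ran from 11.52 to 12.22 with a median of 11.83 in Hhip+/- smoke, against 12.18 to 13.07 with a median of 12.46 in Fam13a-/- smoke. All 14 Hhip+/- arrays lay below the Fam13a-/- mean, and the difference was -0.69 ± 0.12 (SE; limma adjusted p = 2.61e-05). Tekt1, a filament protein of ciliary microtubules, ran from 8.90 to 9.87 with a median of 9.41 in Hhip+/- smoke, against 9.59 to 11.26 with a median of 10.17 in Fam13a-/- smoke. Its groups overlapped only in their tails, with a difference of -0.80 ± 0.15 (adjusted p = 8.47e-05). Mlf1 and the tubulin-binding Tppp3 differed by -0.71 and -0.69. Foxj1, the regulator of motile ciliogenesis, averaged 6.08 ± 0.31 (SD, n = 14) in Hhip+/- smoke and 6.61 ± 0.52 (SD, n = 13) in Fam13a-/- smoke, a difference of -0.53 (limma adjusted p = 0.00564). The other 9 called members fell between -0.85 for Ccdc40 and -0.39 for Spag16.

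The promoters of called ciliary genes are shown because RFX factors bind the X-box motif in front of many ciliary genes. RefSeq promoter windows of 300 bases (GRCm38.p6) were found for 15 of the 18 tested markers, and 4 of them, 26.7%, hold the RFX X-box on either strand, against 1.53% of all 32851 promoters in the table. The markers were counted by gene, called or not, and the share over all promoters by window. The 4 are Dynlrb2, Dnaic1, Spag16 and Hydin, of which Hydin did not pass (-0.17, adjusted p = 0.549). In the windows below, capitals mark the X-box, which begins 51 bases before the gene start in Dynlrb2, 19 in Dnaic1 and 103 in Spag16. A match is a run of letters, not a measured site.
Dynlrb2, chr8:116504765-116505064, + strand: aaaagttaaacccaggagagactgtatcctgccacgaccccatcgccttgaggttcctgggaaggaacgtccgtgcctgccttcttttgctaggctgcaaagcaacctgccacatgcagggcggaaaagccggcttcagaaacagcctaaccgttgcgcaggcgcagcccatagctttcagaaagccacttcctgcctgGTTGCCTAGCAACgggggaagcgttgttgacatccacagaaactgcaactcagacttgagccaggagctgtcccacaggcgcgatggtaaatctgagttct
Dnaic1, chr4:41569544-41569843, + strand: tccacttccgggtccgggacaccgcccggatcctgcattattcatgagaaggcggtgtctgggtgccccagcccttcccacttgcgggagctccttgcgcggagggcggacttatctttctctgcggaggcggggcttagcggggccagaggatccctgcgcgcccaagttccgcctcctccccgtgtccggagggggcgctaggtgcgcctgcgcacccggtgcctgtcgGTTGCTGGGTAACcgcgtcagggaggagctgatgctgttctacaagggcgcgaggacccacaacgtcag
Spag16, chr1:69826720-69827019, + strand: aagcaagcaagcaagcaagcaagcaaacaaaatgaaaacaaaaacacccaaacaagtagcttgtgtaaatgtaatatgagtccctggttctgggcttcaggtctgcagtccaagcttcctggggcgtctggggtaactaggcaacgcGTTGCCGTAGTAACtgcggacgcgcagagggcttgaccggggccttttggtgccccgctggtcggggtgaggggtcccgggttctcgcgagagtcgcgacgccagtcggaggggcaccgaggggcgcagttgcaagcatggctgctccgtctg
Dnaic1, an intermediate chain of the outer dynein arm, averaged 7.17 ± 0.39 (SD, n = 14) in Hhip+/- smoke and 7.74 ± 0.57 (SD, n = 13) in Fam13a-/- smoke (difference -0.56, limma adjusted p = 0.00805). Spag16, a protein of the central pair of the axoneme, averaged 4.88 and 5.27 in those groups, near background (difference -0.39, adjusted p = 0.0356).

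Both smoke groups were also set against the same wild-type smoke arrays. The ciliated list's median difference from wild-type smoke was -0.09 for Hhip+/- smoke, with 0 of 18 members past the threshold, and 0.52 for Fam13a-/- smoke, with 13 of 18 higher. Over all genes, 1.87% passed for Hhip+/- smoke and 6.19% for Fam13a-/- smoke, where 3.73% were higher and 2.46% lower. These comparisons share their control arrays. The list's level ran from 7.71 to 8.50 with a median of 8.01 in wild-type smoke.

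Club and secretory cell markers were also lower. Club cells are the secretory cells of the small airways and carry cytochrome P450 enzymes. Of 16 tested markers, 7 passed as lower and 0 as higher, and the median difference was -0.40. Cyp2a5, which oxidises nicotine and other tobacco compounds, ran from 9.46 to 11.76 with a median of 10.63 in Hhip+/- smoke, against 11.20 to 13.01 with a median of 12.41 in Fam13a-/- smoke. All 14 Hhip+/- arrays lay below the Fam13a-/- mean, with -1.65 ± 0.27 (SE) between the means and an adjusted p in limma of 1.1e-05, or 3.14-fold higher in Fam13a-/- smoke. Cyp2f2, a second club cell P450 enzyme, differed by -0.38 ± 0.08 (adjusted p = 0.000598).

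Secreted defence proteins of the upper airway gave larger and more uneven differences. Bpifa1 ran from 4.68 to 10.88 with a median of 6.74 in Hhip+/- smoke, against 5.54 to 12.22 with a median of 11.60 in Fam13a-/- smoke. The ranges overlapped, most Hhip+/- arrays were low and most Fam13a-/- arrays high, and the difference was -3.18 ± 0.80 (SE; limma adjusted p = 0.00287). Bpifb1 (-2.49), Gp2 (-2.26), the antimicrobial lectin Reg3g (-1.79) and the tight junction gene Cldn10 (-0.42) also passed. Scgb1a1, the most used club cell marker, did not, with a difference of 0.06 and a 95% interval of -0.07 to 0.19. The mucosal peptide Tff2, outside the list, differed by -1.67 (adjusted p = 0.0255), a call lost without Hhip+/- smoke replicate 8 or 10 or Fam13a-/- smoke replicate 2, with an adjusted p of up to 0.0546.

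Heart muscle genes moved with these airway genes. They are not expected of lung parenchyma, though pulmonary veins carry cardiac muscle. Of 17 tested genes, 11 passed as lower in Hhip+/- smoke and 0 as higher, with a median difference of -1.51. The mean level of the list ran from 6.05 to 8.96 with a median of 7.71 in Hhip+/- smoke, against 6.16 to 10.07 with a median of 9.55 in Fam13a-/- smoke and 5.72 to 9.69 with a median of 8.61 in wild-type smoke. The groups overlapped, and 1 Fam13a-/- array, replicate 4, was almost as low as the lowest Hhip+/- array, replicate 10. Both of these arrays were also among the lowest 2 of their group for the club and secretory list.

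Nppa, the atrial natriuretic peptide, ran from 4.55 to 10.83 with a median of 6.46 in Hhip+/- smoke, against 4.48 to 12.18 with a median of 11.52 in Fam13a-/- smoke, the widest named difference at -3.29 ± 0.84 (SE; limma adjusted p = 0.00365). Its ranges overlapped nearly throughout at the low end, and the highest Fam13a-/- arrays lay above every Hhip+/- array. The ventricular light chain Myl3 (-2.42), the creatine kinase Ckm (-1.51) and troponin C, Tnnc1 (-1.63), passed as well. Sarcolipin, Sln (-1.93), myoglobin, Mb (-1.73), and Mybphl (-1.64) passed, but each call was lost on leaving out single arrays, with adjusted p of up to 0.0839, 0.0763 and 0.0643. These arrays were Hhip+/- smoke replicates 4, 8 and 10 and Fam13a-/- smoke replicate 2 for all 3 genes, besides Hhip+/- smoke replicate 1 and Fam13a-/- smoke replicate 11 for Sln and Mybphl, Fam13a-/- smoke replicate 1 for Sln and Mb, Hhip+/- smoke replicate 11 for Mb and Fam13a-/- smoke replicate 13 for Sln. Left-out single arrays gave 7 to 14 called members, with 7 without Fam13a-/- smoke replicate 2 or 13. With the list's level of each array as a covariate, 998 genes passed, 504 higher and 494 lower. In that fit 0 members of the list itself, from which the covariate is made, passed, against 3 club and secretory markers and 11 of the 18 ciliated markers. With median scaling 7 heart muscle genes passed, and with array weights 6. The part of heart muscle RNA in the differences of other genes was not tested beyond this covariate.

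Fat genes followed the same direction. Of 9 tested adipocyte genes, 4 passed as lower and 0 as higher, with a median of -0.50. The adipokine Adipoq ran from 4.63 to 7.54 with a median of 5.51 in Hhip+/- smoke, against 4.54 to 8.85 with a median of 7.73 in Fam13a-/- smoke. Most Fam13a-/- arrays lay above all Hhip+/- arrays, and the difference was -1.85 ± 0.36 (SE; limma adjusted p = 0.000121). The lipid droplet gene Cidea differed by -0.90 and the triglyceride enzyme Dgat2 by -0.53. Leptin, Lep, was detected on 0 of 14 Hhip+/- smoke arrays and on 6 of 13 Fam13a-/- smoke arrays, too near background for a fold, with means of 4.69 in Hhip+/- smoke and 5.35 in Fam13a-/- smoke and an adjusted p of 4.48e-05. Car3, an abundant carbonic anhydrase of fat and muscle, differed by -2.17 with an adjusted p of 0.000112. Gtsf1l differed by -2.30, with an adjusted p of 1.69e-06.

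**Figure D2:**
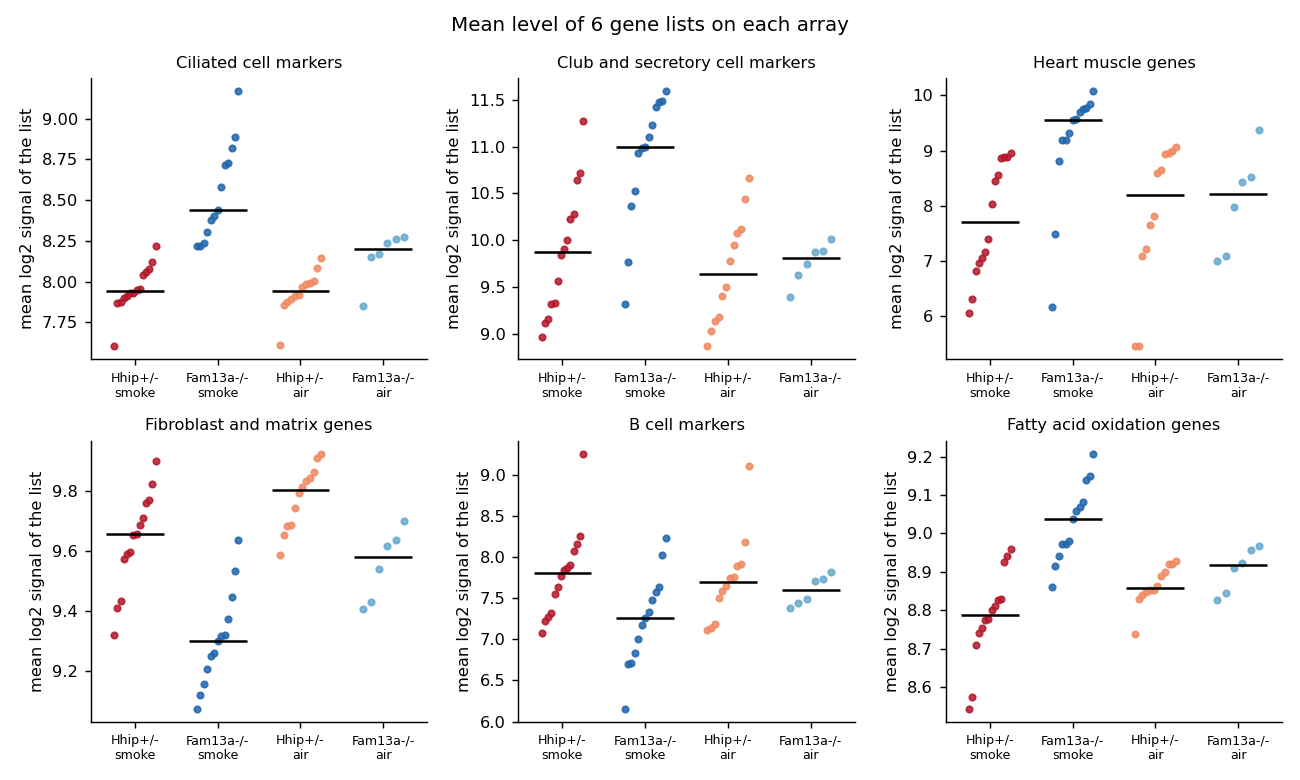
Each point is 1 array and the vertical axis is the mean log2 signal over the tested members of a list; black lines are group medians. Ciliated markers were at 7.60 to 8.22 in Hhip+/- smoke against 8.22 to 9.17 in Fam13a-/- smoke, and heart muscle genes spread over 6.05 to 8.96 and 6.16 to 10.07 in those groups.

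Genes of fatty acid oxidation, the mitochondrial route that Fam13a has been linked to, were mostly lower in Hhip+/- smoke. Of 20 tested, 7 passed as lower and 1, Decr1 (0.58, adjusted p = 0.0483), as higher, with a median of -0.20. Pdk4, the kinase that turns off pyruvate dehydrogenase in fasting, ran from 6.97 to 9.04 with a median of 7.81 in Hhip+/- smoke, against 8.16 to 10.56 with a median of 9.42 in Fam13a-/- smoke. Each of the 14 Hhip+/- arrays lay below the Fam13a-/- mean, differing by -1.37 ± 0.25 (SE, adjusted p in limma 5.6e-05). The enoyl-CoA hydratase Echs1 differed by -0.33, the electron transfer subunit Etfa by -0.24 and the muscle carnitine transferase Cpt1b by -0.68. None of the other Etfa probes passed, with adjusted p of 0.313 to 0.863. With median scaling 1 member passed, with the heart muscle covariate 2, and with the difference of the Y-linked and Xist levels as a covariate 4.

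Subunits of oxidative phosphorylation had negative differences for 37 of 37 tested, of which 6 passed, with a median of -0.17. Atp5g1, a subunit of the ATP synthase, ran from 10.65 to 11.28 with a median of 10.96 in Hhip+/- smoke, against 10.78 to 11.68 with a median of 11.53 in Fam13a-/- smoke (difference -0.45 ± 0.10 SE, limma adjusted p = 0.000803). The cytochrome subunit Cyc1 differed by -0.42, and the complex I subunits Ndufv2 and Ndufa8 by -0.25 and -0.23, and another Ndufa8 probe did not pass (adjusted p = 0.0807). With median scaling 1 subunit passed, with the heart muscle covariate 2 and with array weights 12.

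Glucocorticoid-responsive genes, which rise with stress hormone, were lower for 6 of 17 tested and higher for 0, with a median of -0.32. Besides Pdk4, the stress kinase Map3k6 differed by -0.91 ± 0.23 (SE; limma adjusted p = 0.00351), and the metallothioneins Mt1 and Mt2 by -0.62 and -0.69. Mt1 ran from 12.81 to 13.68 with a median of 13.42 in Hhip+/- smoke, against 13.50 to 14.59 with a median of 13.89 in Fam13a-/- smoke, with an adjusted p of 0.000204. The cell cycle inhibitor Cdkn1a (-0.84) and the receptor chaperone Fkbp5 (-0.94) were the other called members. Against wild-type smoke the list's median was -0.13 for Hhip+/- smoke and 0.25 for Fam13a-/- smoke.

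Mt3, a metallothionein gene known mainly from brain, went the other way. It ran from 4.67 to 9.41 with a median of 7.73 in Hhip+/- smoke, against 4.58 to 6.88 with a median of 5.67 in Fam13a-/- smoke. Of the 14 Hhip+/- smoke arrays, 11 lay above every Fam13a-/- smoke array and 3, replicates 1, 5 and 12, lay at 4.67, 5.40 and 4.83 without detection. The difference was 1.62 ± 0.33 (SE; limma adjusted p = 0.00024), and it was 2.08 for Hhip+/- smoke and 0.46 for Fam13a-/- smoke against wild-type smoke. Without smoke it was higher in Hhip+/- as well: 5.91 to 8.20 with a median of 7.53 in Hhip+/- air, against 4.50 to 5.30 with a median of 4.78 in Fam13a-/- air, where no array detected it. The air groups did not overlap, the fold was at least 4.29, and the adjusted p was 0.00022. The windows of Mt3 and Mt1 on chromosome 8, the chromosome of Hhip, are shown because these related genes differed in opposite directions. Capitals mark TGCNCNC on either strand, a looser pattern than the metal response element core, which holds A or G after TGC. This pattern stands 3 times in each window and in 51.0% of all promoters. Each Mt1 match holds A or G after TGC, while in Mt3 only the match TGCACAC does.
Mt3, chr8:94152357-94152656, + strand: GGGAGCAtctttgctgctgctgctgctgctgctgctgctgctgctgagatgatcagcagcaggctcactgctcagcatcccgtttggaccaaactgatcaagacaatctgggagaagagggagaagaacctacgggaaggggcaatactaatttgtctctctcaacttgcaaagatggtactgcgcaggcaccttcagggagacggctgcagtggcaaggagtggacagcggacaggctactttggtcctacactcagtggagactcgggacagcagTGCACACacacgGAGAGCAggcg
Mt1, chr8:94178839-94179138, + strand: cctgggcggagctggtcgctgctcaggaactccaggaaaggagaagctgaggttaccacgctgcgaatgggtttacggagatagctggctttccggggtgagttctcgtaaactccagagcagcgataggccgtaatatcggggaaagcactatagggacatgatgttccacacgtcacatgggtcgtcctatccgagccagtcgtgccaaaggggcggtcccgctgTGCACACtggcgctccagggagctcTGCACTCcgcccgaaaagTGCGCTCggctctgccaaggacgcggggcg
By annotated order, Mt3 lies 302 genes from Hhip on that chromosome.

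Matrix and fibroblast genes were higher in Hhip+/- smoke. Of 28 tested, 12 passed as higher and 0 as lower, with a median of 0.37. Mfap4, a microfibril protein of elastic fibres, ran from 12.21 to 13.60 with a median of 12.69 in Hhip+/- smoke, against 10.83 to 12.33 with a median of 12.16 in Fam13a-/- smoke. All 14 Hhip+/- arrays lay above the Fam13a-/- mean, with 0.89 ± 0.18 (SE) between the means and an adjusted p in limma of 0.000188. The elastin cross-linker Loxl1 (0.66), the collagen chain Col5a1 (0.55) and the collagen-binding Sparc (0.45) also passed, while another Sparc probe did not (0.29, adjusted p = 0.435). Against wild-type smoke, Mfap4 differed by 0.05 for Hhip+/- smoke and -0.84 for Fam13a-/- smoke, while Loxl1 differed by 0.61 and -0.04. With median scaling 0 of the 28 passed, with the heart muscle covariate 6, and without Fam13a-/- smoke replicate 2 the count was 7.

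Among proteases and inhibitors, which shape the matrix in emphysema, 4 of 21 passed as higher and 0 as lower, against 6.5% and 7.11% of all genes. Mmp2, a gelatinase, ran from 10.47 to 12.01 with a median of 10.99 in Hhip+/- smoke, against 9.83 to 10.83 with a median of 10.45 in Fam13a-/- smoke, differing by 0.61 ± 0.14 (SE, adjusted p in limma 0.000752). Its inhibitor Timp2 differed by 0.36, the complement inhibitor Serping1 by 0.31 and the sheddase Adam17 by 0.33. Of 17 smooth muscle and pericyte markers 5 passed as higher and 0 as lower: Pdgfrb (0.80), Mylk (0.63), Abcc9 (0.51), Notch3 (0.65) and Myh11 (0.56). Another Abcc9 probe did not pass (adjusted p = 0.282). With median scaling 0 proteases and 2 of the smooth muscle markers passed.

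The Wnt and beta-catenin list, relevant to the known role of Fam13a, had 9 of 29 tested genes higher in Hhip+/- smoke and 1 lower, with a median of 0.13. Of the ligands, Wnt7a ran from 7.30 to 8.89 with a median of 8.34 in Hhip+/- smoke, against 6.17 to 8.41 with a median of 6.96 in Fam13a-/- smoke. Each of the 14 Hhip+/- arrays lay above the Fam13a-/- mean, though the ranges overlapped, and the difference was 1.22 ± 0.18 (SE; limma adjusted p = 1.97e-06). Within Fam13a-/- smoke, replicates 1 to 8 lay at 6.17 to 7.11, below every Hhip+/- array. Replicates 9 to 13 lay at 7.31 to 8.41, within the Hhip+/- range. The receptors Fzd2 and Fzd7 differed by 0.95 and 0.60. Porcn, the acyltransferase that lets Wnt proteins be secreted, was lower by -0.52 ± 0.11 (adjusted p = 0.000598). Axin2, a feedback target of beta-catenin, differed by 0.55 (adjusted p = 0.00123). With median scaling 3 members passed as higher.

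Ccn5, a Wnt-induced matricellular gene, had the smallest adjusted p of all genes between the smoke groups. It ran from 9.54 to 11.60 with a median of 10.75 in Hhip+/- smoke, against 8.41 to 10.68 with a median of 8.97 in Fam13a-/- smoke. All 14 Hhip+/- arrays lay above the Fam13a-/- mean, with 1.44 ± 0.20 (SE) between the means and an adjusted p in limma of 8.53e-07, or 2.71-fold. The Fam13a-/- smoke arrays split by replicate number, which follows sample order. Replicates 1 to 8 lay at 8.41 to 9.37, below every Hhip+/- array. Replicates 9 to 13 lay at 9.74 to 10.68, within the Hhip+/- range. The cause of this split was not tested. Chst3, which sulphates chondroitin, differed by 1.21 (adjusted p = 1.69e-06), Shisa2 by 1.19, the kinase Dclk3 by 1.18, and the transcription factor Gata5 by 0.96. Chst3 and Dclk3 were also lower on each of Fam13a-/- smoke replicates 1 to 8 than on any of 9 to 13, but Shisa2 was not. Dctn1, a subunit of the dynein activator dynactin, had the largest positive difference of the named genes at 1.72 ± 0.43 (adjusted p = 0.00259), and Ptgir, the prostacyclin receptor, differed by 0.96. Dctn1 ran from 6.02 to 9.33 in Hhip+/- smoke and from 4.67 to 7.06 in Fam13a-/- smoke, where 9 of 13 arrays detected it. Against wild-type smoke, Dctn1 passed for neither genotype (limma adjusted p = 0.409 for Hhip+/- smoke and 0.06 for Fam13a-/- smoke).

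**Figure D3:**
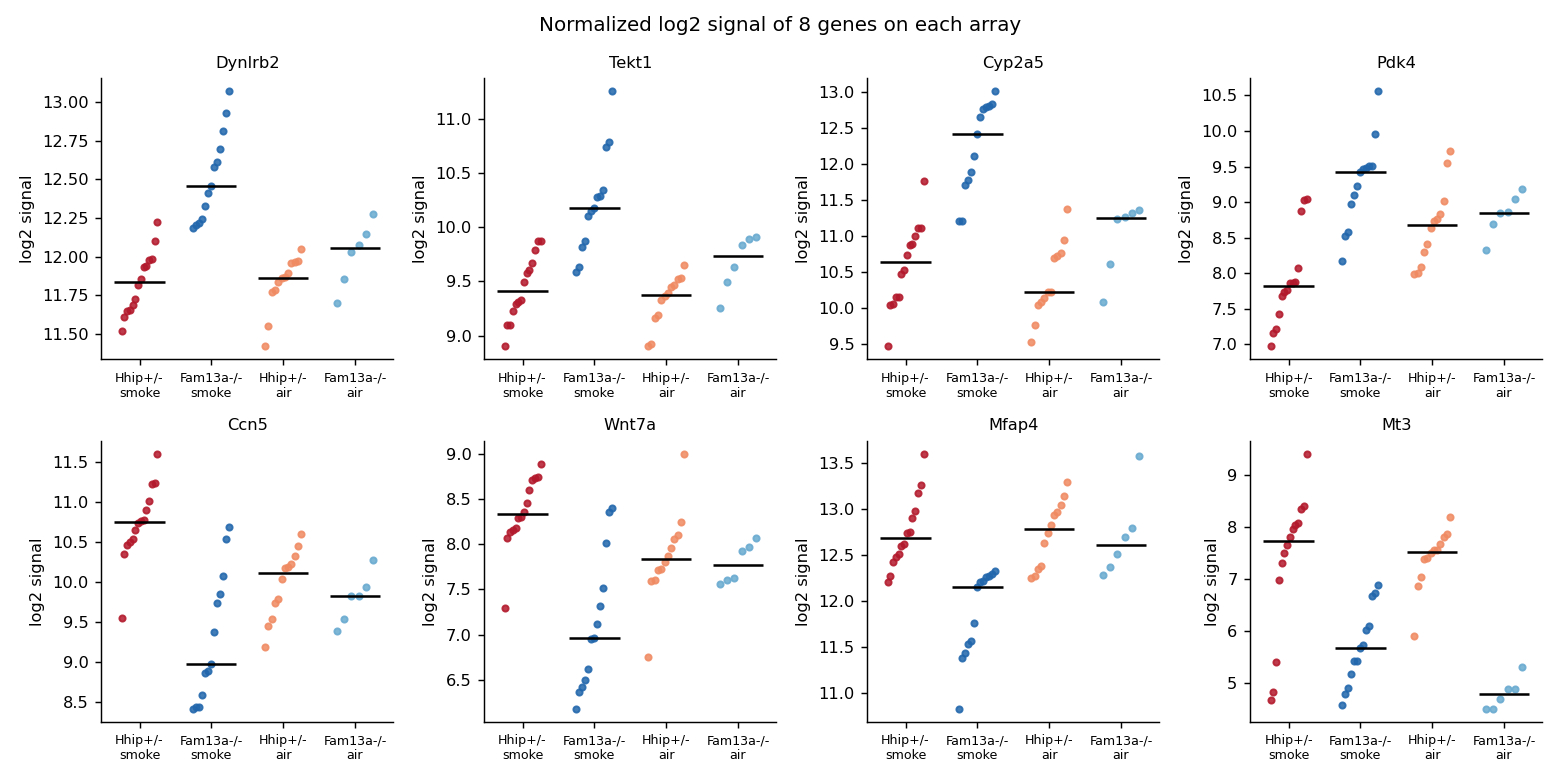
Each point is 1 array and the vertical axis is the normalized log2 signal of 1 probe; black lines are group medians. Dynlrb2, Tekt1, Cyp2a5 and Pdk4 were lower and Ccn5, Wnt7a, Mfap4 and Mt3 higher in Hhip+/- smoke than in Fam13a-/- smoke, and Mt3 alone of them passed between the air groups.

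The Hedgehog list had 9 of its 20 genes tested. Hhip (above) and the ligand-releasing Disp1 (0.57 ± 0.16 SE, limma adjusted p = 0.0102) passed as higher, and the ligand Shh passed as lower (-0.35 ± 0.11, adjusted p = 0.0184). Shh ran from 8.45 to 9.70 with a median of 8.93 in Hhip+/- smoke, against 8.82 to 9.85 with a median of 9.32 in Fam13a-/- smoke, so the groups overlapped widely, and another Shh probe did not pass (-0.25, adjusted p = 0.399). The receptor subunit Smo did not pass (0.15, adjusted p = 0.544), and Ptch1 and Gli1 did not pass the filter on detection. Of 23 tested genes at COPD and lung function loci, 3 passed as higher, Hhip, Pid1 (0.58) and Mtcl1 (0.33), and Cyp2a5 passed as lower, together 17.4% of the list against 13.6% of all genes. The Hhip call is the one lost on leaving out any of 12 single arrays.

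B cell markers were higher for 6 of 13 tested and lower for 1, with a median of 0.60. Fcer2a, the low-affinity IgE receptor, ran from 6.36 to 8.89 with a median of 7.51 in Hhip+/- smoke, against 5.56 to 7.63 with a median of 6.20 in Fam13a-/- smoke. The groups overlapped, differing by 1.10 ± 0.24 (SE, adjusted p in limma 0.000686), while the other 2 Fcer2a probes did not pass (0.42 and 0.48, adjusted p = 0.113 and 0.0734). The IgM receptor Fcmr differed by 1.15 and the surface marker Ms4a1 by 0.58, while Vpreb3, a chaperone of the B cell receptor, differed by -0.77. The mean level of the list ran from 7.08 to 9.25 in Hhip+/- smoke and from 6.15 to 8.23 in Fam13a-/- smoke. Leaving out Hhip+/- smoke replicate 9, its highest array, or Fam13a-/- smoke replicate 6, its lowest, left 3 markers called as higher, and median scaling left 2.

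Among macrophage and innate genes, 5 of 19 lysosomal and lipid-laden macrophage genes passed as higher and 0 as lower. For this and the other lists here, the shares over all genes were 6.5% higher and 7.11% lower. Gpnmb, a marker of lipid-laden macrophages, ran from 9.67 to 11.84 with a median of 10.39 in Hhip+/- smoke, against 9.13 to 9.87 with a median of 9.54 in Fam13a-/- smoke, with 0.98 ± 0.23 (SE) between the means and an adjusted p in limma of 0.00129. The lysosomal lipase Lipa (0.82), the receptor Trem2 (0.76), the cholesterol exporter Abcg1 (0.57) and Lamp2 (0.31) passed with it. Of 26 interferon-responsive genes 4 passed as higher: Ifit2 (0.58), Ifit3 (0.66), Gbp2 (0.57) and Gbp3 (0.58). None of the other probes of Ifit3 (adjusted p = 0.305 and 0.243) and Gbp2 (-0.06, adjusted p = 0.928) passed. The fractalkine receptor Cx3cr1 (1.16) and its ligand Cx3cl1 (0.46) passed as higher, as did Il1a (0.71) and the dendritic cell lectin Cd209a (0.69). Of 10 MHC class II genes, H2-DMb1 (0.32) and the class II transactivator Ciita (0.47) passed, calls lost without Hhip+/- smoke replicates 6 or 9 or Fam13a-/- smoke replicate 6 for H2-DMb1 (adjusted p of up to 0.0702), and without Hhip+/- smoke replicates 6, 9, 10 or 13 or Fam13a-/- smoke replicate 2 for Ciita (adjusted p of up to 0.079). With median scaling 2 of the lysosomal genes and 0 of the interferon genes passed, and with the heart muscle covariate 3 lysosomal genes.

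Endothelial markers split. Gpihbp1, which anchors lipoprotein lipase in capillaries, ran from 9.71 to 11.41 with a median of 11 in Hhip+/- smoke, against 11.04 to 11.90 with a median of 11.53 in Fam13a-/- smoke. Each of the 14 Hhip+/- arrays lay below the Fam13a-/- mean, differing by -0.60 ± 0.10 (SE, adjusted p in limma 7.41e-06), and the endothelial nitric oxide synthase Nos3 was lower by -0.50. Against wild-type smoke, Gpihbp1 differed by -0.52 for Hhip+/- smoke (adjusted p = 1.26e-05) and 0.08 for Fam13a-/- smoke (adjusted p = 0.713). Plvap (0.43), the apelin receptor Aplnr (0.81), Sox7 (0.62) and Sox18 (0.47) were higher, so 4 of 23 passed as higher and 2 as lower. The count of higher members was 9 without Hhip+/- smoke replicate 9, 7 without Fam13a-/- smoke replicate 3, 8 with array weights, 2 with the heart muscle covariate and 1 with median scaling.

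**Figure D4:**
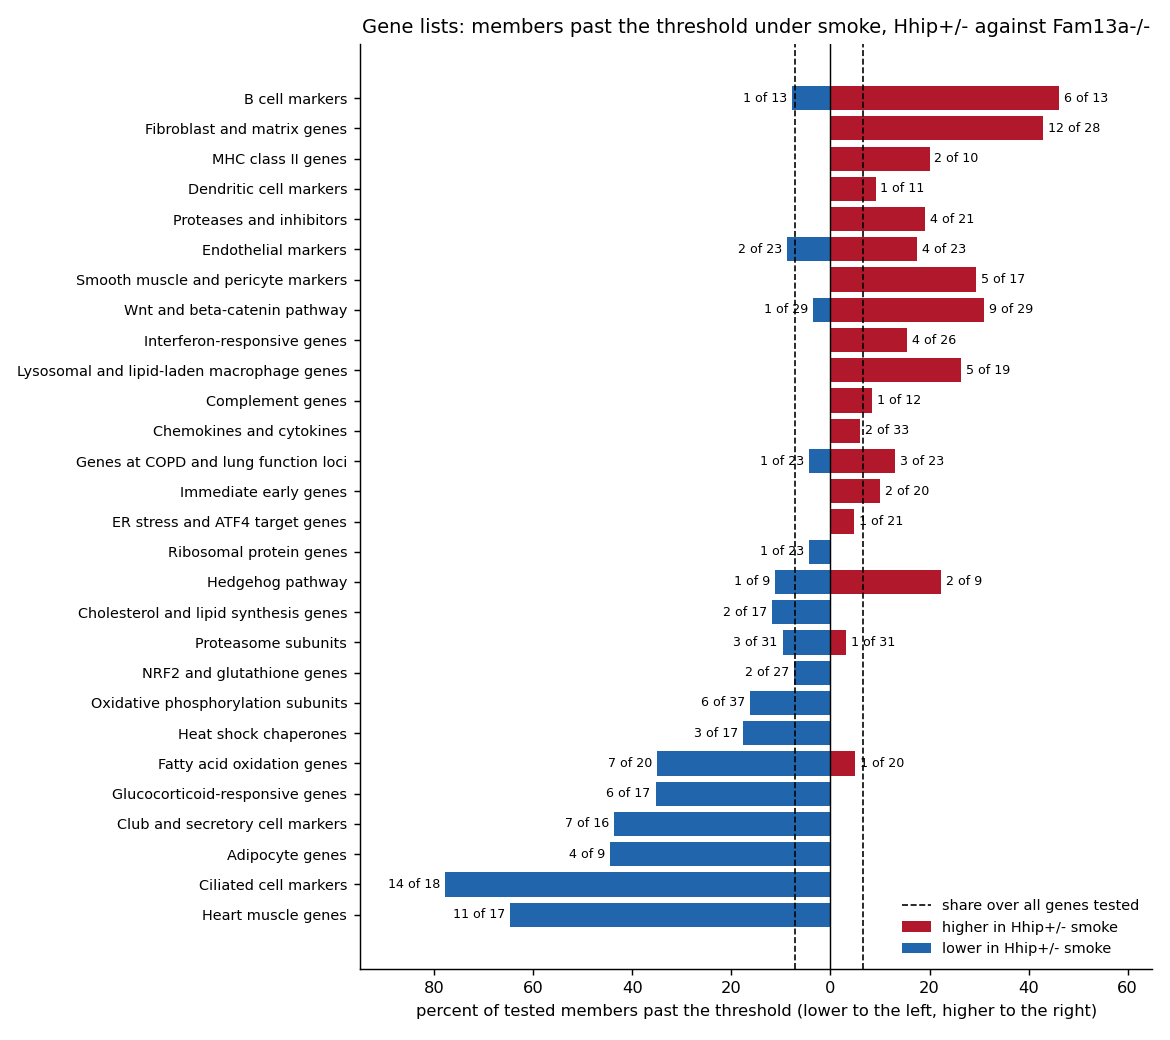
Bars give the percent of a list's tested members past the threshold, lower in Hhip+/- smoke to the left and higher to the right, with the counts beside them, ordered by the list's median difference. Dashed lines mark the shares over all genes, 7.11% lower and 6.5% higher; ciliated markers reached 14 of 18 lower and matrix genes 12 of 28 higher.

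Several lists of interest under smoke had few or no called members. Of 7 aryl hydrocarbon receptor targets, which smoke is known to induce, 0 passed between the smoke groups. Against wild-type smoke, 2 of the 7 were lower for Hhip+/- smoke and 3 for Fam13a-/- smoke, against 0.89% and 2.46% of all genes. The list's level had a median of 7.72 in Hhip+/- smoke, 7.41 in Fam13a-/- smoke and 8.28 in wild-type smoke. Cyp1b1 averaged 9.01 ± 0.76 (SD, n = 14) in Hhip+/- smoke and 8.51 ± 1.11 (SD, n = 13) in Fam13a-/- smoke, a difference of 0.50 with a 95% interval of -0.29 to 1.28. Of 27 NRF2 and glutathione genes, the antioxidant response, 2 passed as lower, Cbr1 (-0.41) and Gsta4 (-0.49). The Cbr1 call was lost without Hhip+/- smoke replicate 10, and the Gsta4 call without any of Hhip+/- smoke replicates 1, 4, 6, 12 and 14 and Fam13a-/- smoke replicates 11, 12 and 13, with an adjusted p of up to 0.0971. Nqo1 averaged 8.29 ± 1.01 in Hhip+/- smoke and 8.29 ± 1.13 in Fam13a-/- smoke, a difference of 0.00 with a 95% interval of -0.54 to 0.54. Surfactant and type 2 cell markers had 0 of 14, type 1 cell markers 0 of 9, alveolar macrophage markers 0 of 11, neutrophil markers 0 of 13, and T and NK cell markers 0 of 21 past the threshold. All 21 T and NK differences were positive, with a median of 0.31.

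The genotypes were then compared without smoke. Between Hhip+/- air and Fam13a-/- air 1 gene passed, Mt3, or 0.00881% of those tested, with 487 genes at an unadjusted p below 0.05 in limma. The air groups held 12 and 6 arrays, fewer than the smoke groups. Of the 737 genes called as higher in Hhip+/- smoke, 519, or 70.4%, were also higher in Hhip+/- air, against 45.9% of all genes, and of the 807 called as lower, 639, or 79.2%, were lower in air, against 54.0% of all genes. Their differences were smaller in air, with medians of 0.07 and -0.14, against 0.44 and -0.52 under smoke. These genes were picked by their smoke differences, so smaller values on other arrays can follow from the picking alone. An effect of smoke cannot be read from these medians. The ciliated list's median was -0.25 in air, with a level of 7.62 to 8.15 in Hhip+/- air and 7.85 to 8.27 in Fam13a-/- air, and the heart muscle list's median was -0.31.

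Whether the genotype difference itself changed with smoke was tested as the smoke difference minus the air difference. No gene passed (0% of those tested), with 1008 genes at an unadjusted p below 0.05 in limma and 786 genes past the threshold when limma's array weights were used. The smallest adjusted p, 0.199, was shared by 16 genes or unnamed probes, among them Wnt7a. The named genes of smallest unadjusted p were Gata5, Myh9, Arhgef18, Plxnd1, Alox12, Sort1, Ccn5 and Swt1. For Ccn5 the smoke difference exceeded the air difference by 1.26, and the air groups averaged 9.97 in Hhip+/- air and 9.79 in Fam13a-/- air. Ccn5 split by sample order within Fam13a-/- smoke (above). All air arrays of both genotypes come before Fam13a-/- smoke replicates 9 to 13 and Hhip+/- smoke replicates 8 to 14 in that order. For these smoke arrays, order and exposure cannot be told apart. For Myh9, non-muscle myosin, the difference was 0.23 under smoke and -0.46 in air, neither of which passed.

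Within genotypes, 28 genes passed between Hhip+/- smoke and Hhip+/- air (0.247%), 23 higher and 5 lower (0.0441%), and 247 between Fam13a-/- smoke and Fam13a-/- air (2.18%), 149 higher (1.31%) and 98 lower (0.864%). Among the members above, Cyp2a5 was higher in Fam13a-/- smoke than in Fam13a-/- air by 1.27 (limma adjusted p = 0.0319) and Mfap4 lower by -0.84 (adjusted p = 0.0287). In Hhip+/- the same differences were 0.22 and 0.02, with adjusted p of 1 for both. The test of the difference between these effects did not pass for either gene (adjusted p = 0.472 and 0.312).

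Against wild-type smoke, 111 genes were higher and 101 lower in Hhip+/- smoke, and 423 were higher and 279 lower in Fam13a-/- smoke. Leaving out single arrays moved the Hhip+/- count of 212 to between 116 and 275, with 141 without replicate 4 and 116 without replicate 6. The medians of the club and secretory list were -0.06 for Hhip+/- smoke and 0.35 for Fam13a-/- smoke, with 0 and 6 of 16 markers higher. Those of the heart muscle list were -0.54 and 0.86, with 0 and 4 of 17 higher, and those of the matrix list were 0.08 and -0.25. For B cells they were 0.39 and -0.21. Both comparisons use the same wild-type arrays.

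**Figure D5:**
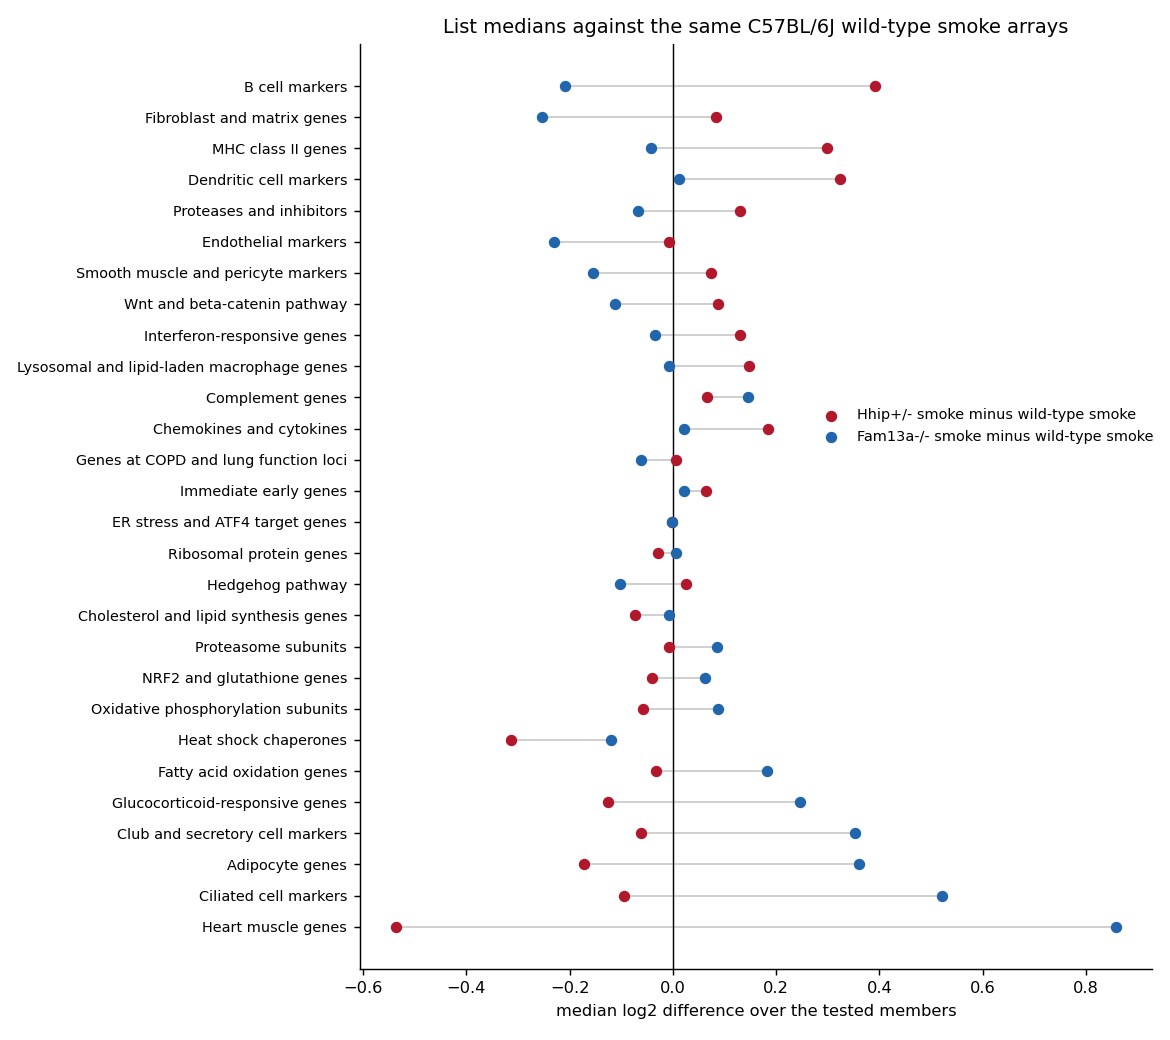
Points give the median log2 difference of each list from C57BL/6J wild-type smoke, red for Hhip+/- smoke and blue for Fam13a-/- smoke, with the same wild-type arrays in both. The ciliated list lay at -0.09 for Hhip+/- smoke and 0.52 for Fam13a-/- smoke, and the heart muscle list at -0.54 and 0.86.

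Genes near the targeted loci were read as neighbours in the annotation. Of the 80 nearest annotated genes around Hhip on chromosome 8, 10 were tested and 1 passed, a share of 10% against 13.6% of all genes: Ttc29, a ciliary and flagellar gene, which differed by -0.70 ± 0.15 (SE; limma adjusted p = 0.000543). It differed by -0.07 for Hhip+/- smoke and 0.63 for Fam13a-/- smoke against wild-type smoke. Of the 80 around Fam13a on chromosome 6, 7 were tested and 0 passed in limma.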

How the data were processed

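Lung RNA was read on Illumina bead arrays of 1 colour and 25697 probes. The authors deposited intensities, not normalized per the file headers, and beside each a detection p-value. Normalized log2 values that the authors also deposited served only as an alternative: how they were made is not given in these sources, every column matched its own array best, column medians ran from 7.212 to 7.215, and background handling and centring stay unknown.

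Intensities were processed with neqc of limma 3.58.1 in R 4.3.3 (normexp background from the detection p-values, offset 16, quantile normalization, log2). Probes with a detection p below 0.01 on at least 6 arrays were kept (15363), and each gene was read from its brightest kept probe, giving 11346. Platform annotation named 23978 probes and left 1719 unnamed; symbols were updated through a RefSeq gene table, built on GRCm38.p6, for 23962 probes by gene identifier and 9 by accession, which also gave neighbour order, and 7 kept the platform's symbol. Other kept probes of the 112 named genes, 41 in all, had the opposite sign in 3 cases (Gbp2, Shmt2 and Swt1), none past the threshold, and 19 of the 41 did not pass. For 12 of the 31 genes with other probes, no other probe passed: Abcc9, Etfa, Fcer2a, Gbp2, Ifit3, Ndufa8, Psma7, Psmb10, Psmd12, Shh, Shmt2 and Sparc. Groups entered 1 linear model of group means (lmFit, eBayes, 101 residual degrees of freedom) over all 8 groups of the series, with two-sided contrasts and Benjamini-Hochberg adjustment. Every adjusted p is from limma. Log2 values can be compared between groups of a probe, not between probes.

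Genes were named by rule: Hhip and Fam13a, the 15 largest called differences in each direction, up to 4 called members of each gene list, the 6 largest in each direction in air, the 8 smallest adjusted p for smoke against air (ties ordered by unadjusted p), and called neighbours among 40 genes on each side of Hhip and Fam13a; clone and predicted names were only counted. Other genes named, such as the further called list members, were chosen after their values were seen. The groups compared and the gene lists were chosen with earlier results of these data known. A gene undetected on every array of a group was given a bound: the mean of the detected group was set against the other group's mean over arrays of the higher of the lowest detected signal and the probe's own. Intervals are 95%. The number of arrays limits the precision. The fit was tested on simulated data. Alternatives changed the scaling, probe filter, probe choice, arrays in the fit, array weights, covariates and single arrays. Motifs and figures used Python 3.11.15, pandas 2.3.3 and matplotlib 3.10.9.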

Additional observations from a re-analysis of the deposited data

Results flagged for a closer look

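Of 54 sets of 6 Fam13a-/- air values examined, 2 held an array far from the other 5, and chance alone marks about 5% of such sets. The mean level of the ciliated markers in Fam13a-/- air replicate 6 was 7.85, against 8.15 to 8.27 on the other arrays of that group. Taf15, an RNA-binding protein gene, was at 7.05 in Fam13a-/- air replicate 4, against 8.59 to 8.82 on the other arrays of that group.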

How the results depend on the processing

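Between Hhip+/- smoke and Fam13a-/- smoke, median scaling gave 476 genes and the heart muscle covariate 998, against 1544 in the main analysis. With the difference of the Y-linked and Xist levels as a covariate, 1320 genes passed. A fit of strain C57BL6 alone gave 1769 (850 higher, 919 lower), a fit of only these groups 1329 (637 higher, 692 lower), and leaving out single arrays gave 1288 to 1662. NZWLacJ smoke replicate 5 had a mean correlation of 0.9632 with the other arrays of the series. The other NZWLacJ smoke arrays had 0.8854 to 0.9196. Whether the strain label of replicate 5 is right was not tested. Between the air groups, where 1 gene passed, the authors' deposited values gave 3, no detection filter 2, a fit of only these groups 8, a fit of strain C57BL6 alone 4 and array weights 346, and leaving out single arrays 1 to 2. For the genotype difference under smoke minus that in air, array weights gave 786 against 0, and leaving out single arrays 0 to 0. Against wild-type smoke, Hhip+/- smoke had 56 genes (8 higher, 48 lower) with median scaling and 586 (333 higher, 253 lower) with array weights, against 212, with 116 to 275 on leaving out single arrays. Fam13a-/- smoke had 164 (108 higher, 56 lower) with median scaling and 354 (219 higher, 135 lower) with the heart muscle covariate, against 702, with 468 to 829 on leaving out single arrays. With the covariate of Y-linked and Xist levels it had 483. The heart muscle covariate reversed the differences of Sln (0.26), Ckmt2 (0.0112), Mb (0.18) and Mybphl (0.21). Of the 112 named genes, 53 kept direction and side of the threshold with median scaling, 80 with the heart muscle covariate, and 111 with the authors' deposited values. The cause of these changes was not tested. No paired analysis was possible because the labels number no replicates. Probes near background limit the sizes of differences for weak genes such as Lep and Mt3. No batch, slide or sex label was at hand, so a batch and a group cannot be told apart.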

Other observations

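Genes whose smoke groups did not overlap at all were 0.0793% of those tested, 9 in number, and were chosen after their values were seen. Wdpcp, a planar polarity effector needed for ciliogenesis, ran from 7.41 to 7.79 with a median of 7.60 in Hhip+/- smoke, against 7.88 to 9.52 with a median of 8.46 in Fam13a-/- smoke (difference -0.997 ± 0.14 SE, limma adjusted p = 1.57e-06). Every Hhip+/- array lay below every Fam13a-/- array. Against wild-type smoke Wdpcp differed by -0.51 for Hhip+/- smoke and 0.49 for Fam13a-/- smoke. P2ry14, a receptor for UDP-sugars, ran from 10.39 to 11.10 with a median of 10.66 in Hhip+/- smoke, against 9.91 to 10.37 with a median of 10.14 in Fam13a-/- smoke (difference 0.53, adjusted p = 1.97e-06).

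Zfp869, a zinc finger gene on chromosome 8, the chromosome of Hhip, and outside the neighbours counted around it, ran from 8.37 to 8.91 with a median of 8.60 in Hhip+/- smoke, against 9.07 to 9.92 with a median of 9.36 in Fam13a-/- smoke (difference -0.72, limma adjusted p = 2.93e-06). Its air groups did not overlap either, at 8.28 to 9.09 in Hhip+/- air and 9.15 to 9.48 in Fam13a-/- air, though the air difference of -0.64 did not pass (adjusted p = 0.129). Against wild-type smoke it differed by -0.73 for Hhip+/- smoke and -0.01 for Fam13a-/- smoke. On chromosome 8, 99 of 564 tested genes, 17.6%, passed between the smoke groups, against 13.6% of all genes, and chromosome 12, which holds neither Hhip nor Fam13a, had a like share of 17.4%, 58 of 334.

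Of 17 heat shock chaperones 3 passed as lower in Hhip+/- smoke, led by Dnaja1 (-0.85, limma adjusted p = 0.00116). Of 17 cholesterol and lipid synthesis genes 2 passed as lower, Lss (-0.37) and Sqle (-0.34). The share over all genes was 7.11% lower. Differences were negative for 14 of the 17 chaperones and 12 of the 17 synthesis genes. Against wild-type smoke, 5 chaperones passed as lower for Hhip+/- smoke and 1 as higher for Fam13a-/- smoke, against 0.89% and 3.73% of all genes. Cell cycle genes had 0 of 17 and circadian clock genes 0 of 15 past the threshold in limma.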
